A study of Mus musculus with 3 samples.

Results

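Mt1 and Mt2 encode metallothioneins, small cysteine-rich proteins that bind zinc and copper. Fkbp5, Tsc22d3, Per1, Zbtb16, Sgk1, Klf9 and Txnip are genes that the glucocorticoid receptor is known to switch on in many tissues. These 9 genes were taken by symbol from the 28692 genes measured in 3 single-cell RNA libraries, and all 9 were detected. They were read in barcodes with at least 500 detected genes and at most 15% mitochondrial UMIs (unique molecular identifiers, counted once for each RNA molecule captured), by cell class and by library. The libraries hold cells of the stromal vascular fraction, which is what remains of digested fat once the floating adipocytes are gone, from inguinal white fat of C57BL/6 mice. The saline library came from saline-treated mice, and the cold library from mice held at 4 C for 3 days. The CL library came from mice that received CL 316,243, which activates β3-adrenergic receptors, by intraperitoneal injection at 1 mg/kg over 3 days. No library was given a glucocorticoid, so the response of the genes to the hormone was not measured here.

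Each treatment has 1 library, so no difference between treatments has a replicate check and no test was run. The number of animals behind a library, their age and sex, whether the cold mice were injected and the hour of collection are not given in the sources used here. Differences between libraries in animals, hour, handling or preparation cannot be told apart from the treatments. Intervals below cover counting error only, and they are too narrow where much of a gene's signal sits in few cells.

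Glucocorticoids enter cells freely and bind the receptor encoded by Nr3c1, which is held by heat shock chaperones until the hormone frees it to bind DNA. In adipose stroma, glucocorticoids are a standard part of the mixture that drives preadipocytes towards adipocytes, and Zbtb16 and Klf9 are early targets in such cultures. Blood corticosterone in mice follows the time of day and rises with stress. Several of the 9 genes also answer other signals: metals and oxidants for Mt1 and Mt2, cAMP and the circadian clock for Per1, serum and osmotic stress for Sgk1, and glucose for Txnip.

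The DNA before the start of these genes shows how such signals can meet at 1 gene. RefSeq promoter entries on GRCm38.p6 (mm10) matched 8 of the 9 genes, with 16 entries in all, and the 250 bases before each listed start were searched on both strands. The glucocorticoid response motif (GNACA and TGTNC parted by 3 bases), the core of the metal response motif as TGCACNC or TGCGCNC, the carbohydrate response motif (CACGNG repeated after 5 bases), the E-box CACGTG and the core of the cAMP response motif TGACGTC were sought. So were the antioxidant response motif TGACNNNGC and the full cAMP response motif TGACGTCA. The Mt1, Mt2 and Txnip windows are printed because they hold the metal, glucocorticoid and carbohydrate letters and because in ASPC-like cells (adipocyte stem and progenitor cells) both metallothioneins were lower and Txnip was higher in the cold library. Capitals mark metal core and glucocorticoid letters in Mt1, metal core letters in Mt2, and glucocorticoid and carbohydrate letters in Txnip. All run 5′ to 3′ on the plus strand, which is the strand of each gene.
Mt1 chr8:94178839-94179088: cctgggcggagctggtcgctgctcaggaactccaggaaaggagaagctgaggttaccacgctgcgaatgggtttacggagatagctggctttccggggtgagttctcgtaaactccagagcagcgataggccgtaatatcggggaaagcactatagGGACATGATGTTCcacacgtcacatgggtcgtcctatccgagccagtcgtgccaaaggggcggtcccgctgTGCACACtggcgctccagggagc
Mt2 chr8:94172368-94172617: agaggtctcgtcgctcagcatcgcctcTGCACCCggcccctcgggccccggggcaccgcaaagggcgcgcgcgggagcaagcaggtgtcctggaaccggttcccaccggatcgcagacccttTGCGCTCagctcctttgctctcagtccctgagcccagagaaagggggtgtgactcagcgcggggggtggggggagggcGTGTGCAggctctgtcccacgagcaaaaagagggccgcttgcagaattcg
Txnip chr3:96557707-96557956: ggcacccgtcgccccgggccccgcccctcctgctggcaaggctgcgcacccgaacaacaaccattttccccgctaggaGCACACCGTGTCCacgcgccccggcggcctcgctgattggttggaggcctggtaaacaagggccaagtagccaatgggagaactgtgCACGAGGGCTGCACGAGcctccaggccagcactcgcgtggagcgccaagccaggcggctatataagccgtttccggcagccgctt
Mt1 held the glucocorticoid letters GGACATGATGTTC at 94 to 82 bases before its start and the metal core TGCACAC at 23 to 17 bases. Mt2 held 3 metal cores: TGCACCC at 223 to 217 bases, TGCGCTC at 128 to 122 bases and, read on the opposite strand, GTGTGCA at 50 to 44 bases. Txnip held the glucocorticoid letters GCACACCGTGTCC at 172 to 160 bases and the carbohydrate letters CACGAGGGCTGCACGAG at 85 to 69 bases. A further metal core of Txnip, TGCGCAC at 208 to 202 bases, stands in lower case. At least 1 glucocorticoid match was present in 0.387% of the 32851 promoter windows of the same length, and the carbohydrate match in 0.0457%. At least 1 metal core of either form was present in 21.4% and at least 3 in 1.26%. Of the other windows, 1 of the 6 entries of Sgk1 held the glucocorticoid letters GAACAGAATGTTC at 188 to 176 bases before that start. Per1 held the cAMP core TGACGTC before 1 of its starts, a match found in 2.78% of windows. The full cAMP motif, found in 1.55% of windows, was in none of the 16 entries. Per1, Fkbp5 and the same entry of Sgk1 each held an E-box, found in 6.02% of windows. The Per1 entry with the cAMP core also held a metal core, GCGCGCA, on the opposite strand. Mt2 held the antioxidant letters TGACTCAGC at 79 to 71 bases, which stand in lower case. The Per1 entry with the E-box held 2 such matches, TGACTGAGC at 215 to 207 bases and TGACACAGC at 148 to 140 bases. At least 1 antioxidant match was present in 10.2% of windows and at least 2 in 0.658%. A match is a description of letters and not a bound site. Bases outside these windows, among them those after each start and the introns, were not searched.

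Total depth was 25875379 UMIs in saline, 19899223 in cold and 29323106 in CL, and 6271, 3862 and 6705 barcodes passed the limits, with medians of 3242, 3624.5 and 3847 UMIs per barcode. The number of kept barcodes that 2 libraries share was 7, 9 and 4 for the 3 pairs. Clusters were called by fixed markers, for example ASPC-like for adipocyte stem and progenitor cells, and 11 classes had at least 50 cells in every library. The libraries held 10, 2 and 2 adipocyte-like cells, too few to use. ASPC-like cells numbered 1253, 595 and 1095, endothelial-like cells 313, 251 and 289, and macrophage-like cells 864, 223 and 1293. Some classes were built from different clusters in different libraries. Cluster 10, with Timp1, Lcn2 and Cxcl5 among its leading genes, held 41.4% of ASPC-like cells in CL and 3.27% in saline, and none in cold. Cluster 2, led by Saa3, held 82.0% of CL macrophage-like cells, and clusters 1 and 4 of monocyte-like cells were mostly CL cells. Values within clusters therefore stand beside the class values. Levels are CPM (UMIs of a gene scaled to 1000000 UMIs of the class in that library) with exact 95% Poisson intervals, and ratios are log2 ratios of CPM with exact conditional binomial intervals. A lower CPM cannot be told apart from a larger share of other RNA in the same cells.

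The 9 genes were not highest in the same class. In the saline library, ASPC-like cells had the highest levels of Mt1, Mt2, Fkbp5, Zbtb16 and Klf9, and endothelial-like cells those of Sgk1 and Txnip. Macrophage-like cells had the highest level of Tsc22d3 and type 2 dendritic-like cells that of Per1. The lead of Fkbp5 over NK-like cells and that of Klf9 over endothelial-like cells lay within overlapping intervals, as did the lead of Tsc22d3 over B cell-like and plasmacytoid dendritic-like cells and that of Per1 over B cell-like and NK-like cells. For Mt1 in saline, ASPC-like cells were followed by macrophage-like cells, then by type 2 dendritic-like, monocyte-like and migratory dendritic-like cells with overlapping intervals, then by endothelial-like cells. For Txnip, endothelial-like cells were followed by macrophage-like, ASPC-like and B cell-like cells without overlap, and then by plasmacytoid dendritic-like and T cell-like cells with overlap. For Sgk1, endothelial-like cells were followed by ASPC-like cells, and the next 4 classes overlapped. Zbtb16 was low outside ASPC-like and endothelial-like cells, at 15.4 CPM or less in the other classes. The plot of levels by class shows these orders for each library.

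**Figure D1:**
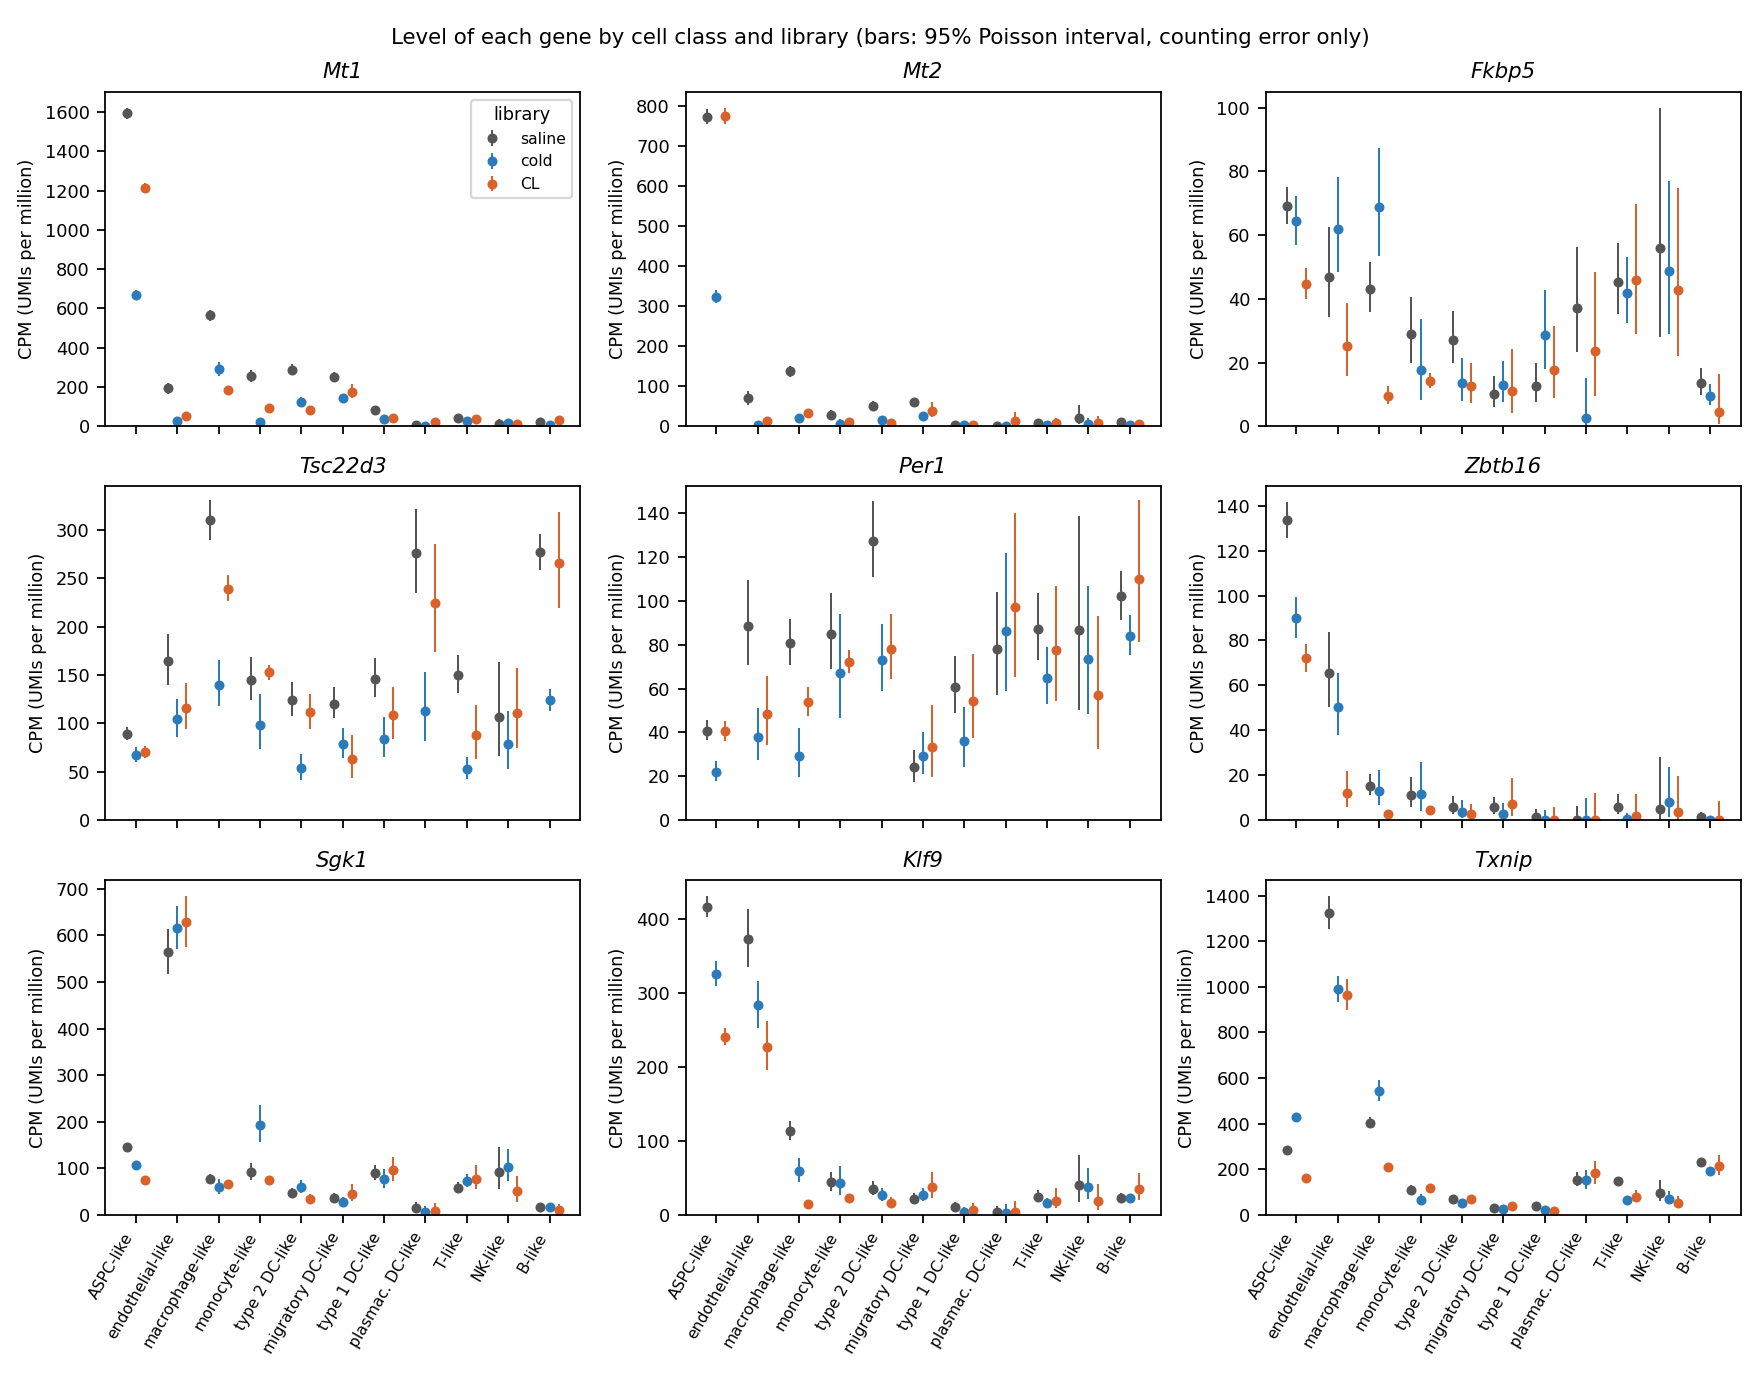
CPM of each of the 9 genes (vertical axes, linear from 0) in 11 cell classes (horizontal axis), with points for the saline, cold and CL libraries and bars for 95% Poisson intervals. ASPC-like cells lead for Mt1 at 1595, 668 and 1212 CPM, and endothelial-like cells lead for Txnip at 1325, 990 and 964 CPM.

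The metallothioneins Mt1 (chr8:94179082-94180327, plus strand, mm10) and Mt2 (chr8:94172664-94173568, plus strand) are protein-coding neighbours with 5513 bases between them. In ASPC-like cells Mt1 was at 1595 CPM (1568 to 1623) in saline, 668 (644 to 693) in cold and 1212 (1187 to 1238) in CL. The cold library was lowest and no 2 of the intervals overlap. The log2 ratio was -1.26 (-1.31 to -1.20) for cold over saline, -0.40 (-0.44 to -0.36) for CL over saline and 0.86 (0.80 to 0.92) for CL over cold. Mt2 was at 772 CPM (753 to 792) in saline, 323 (307 to 341) in cold and 775 (755 to 795) in CL. For Mt2 the saline and CL intervals overlap and the cold level was lower by -1.26 on the log2 scale (-1.34 to -1.17). The level in cold thus lay below both other libraries for both genes, by the same ratio to saline. A UMI of Mt1 was present in 91.9%, 84.7% and 90.0% of the saline, cold and CL cells. After each cell was thinned to 1500 UMIs these shares were 71.4%, 52.1% and 63.8%, with 12, 8 and 23 shallower cells left out. Cells with both Mt1 and Mt2 after thinning made up 45.0%, 21.6% and 38.5%. In B cell-like cells, which serve as a gauge of free RNA, thinned shares with Mt1 were 3.06%, 0.521% and 3.73%, at median depths of 1697, 2461 and 1569.5 UMIs against 6448, 7449 and 6550 in ASPC-like cells.

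Each of the ASPC-like clusters present in cold had less of both metallothioneins there than in saline. In cluster 3, led by Pi16, Mt1 was at 1468 CPM in saline and 663 in cold, a log2 ratio of -1.15 (-1.23 to -1.07). In cluster 5, led by collagen genes such as Col15a1 and Col4a1, it was at 1914 and 601, with a ratio of -1.67 (-1.79 to -1.56). In cluster 14, led by Gdf10, it was at 1575 and 790, with a ratio of -0.996 (-1.13 to -0.86). The ratio was furthest from 0 in cluster 5, where Mt2 also stood at -1.91 (-2.12 to -1.71) against -1.12 in cluster 3 and -0.92 in cluster 14. For CL the clusters differed in direction. Mt1 was lower than in saline in cluster 3 at -0.82 (-0.92 to -0.72), in cluster 5 at -0.79 (-0.86 to -0.72) and in cluster 14 at -0.33 (-0.44 to -0.22). In cluster 10 it was higher, at 1033 CPM over 41 saline cells and 1417 over 453 CL cells, a ratio of 0.46 (0.30 to 0.62). Mt2 in cluster 10 was at 640.1 and 1139 CPM, a ratio of 0.83 (0.63 to 1.04), while its ratio was -0.60 in cluster 3, -0.62 in cluster 5 and -0.24 in cluster 14. The class-wide CL ratio of 0.00 for Mt2 therefore sums lower values in clusters 3, 5 and 14 with higher values in cluster 10.

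**Figure D2:**
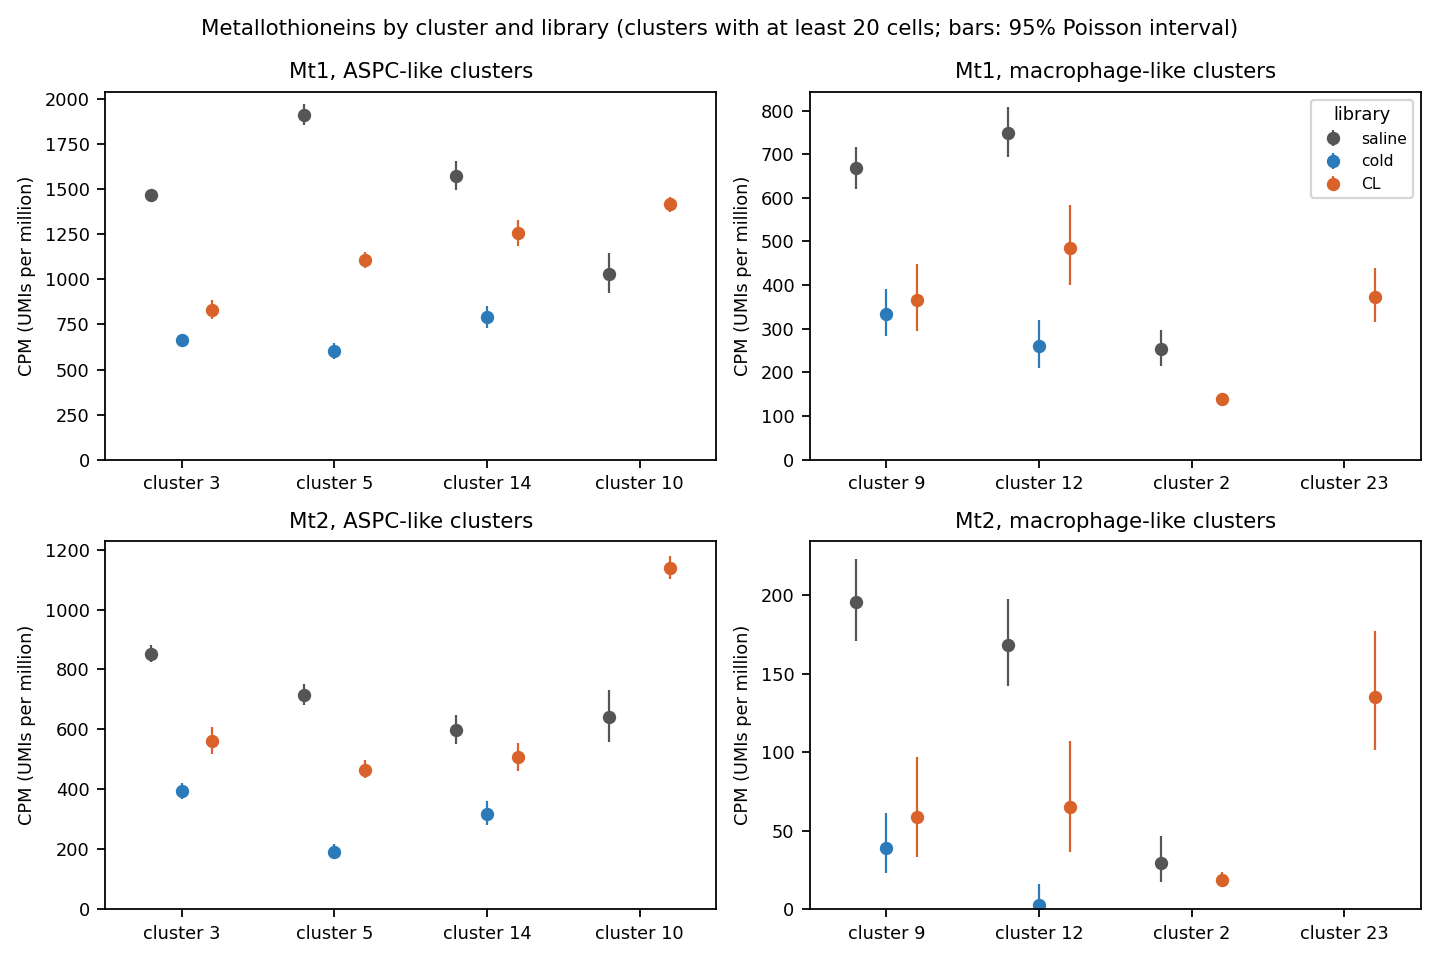
CPM of Mt1 (upper row) and Mt2 (lower row) in ASPC-like clusters (left) and macrophage-like clusters (right), with points for the libraries that have at least 20 cells in the cluster and bars for 95% Poisson intervals; vertical axes start at 0. In ASPC-like clusters 3, 5 and 14 saline is highest and cold lowest for both genes, and in cluster 10 CL lies above saline.

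Outside ASPC-like cells Mt1 was lower in cold than in saline in 8 of the 8 classes where it was tested, a gene being tested where at least 20 of its UMIs were counted over both libraries. These classes include B cell-like cells, the gauge of free RNA, at 1.21% of the ASPC-like Mt1 level in saline and 0.720% in cold. They also include T cell-like cells, whose ratio of -0.58 ran from -1.25 to 0.51 among the alternatives. In endothelial-like cells Mt1 was at 192.5 CPM (165.8 to 222.3) in saline, 24.8 (16.5 to 35.8) in cold and 53.1 (38.6 to 71.2) in CL. Saline was highest, with 40.5% of its Mt1 UMIs in the top 1% of cells. The ratios were -2.96 (-3.59 to -2.38) for cold and -1.86 (-2.37 to -1.38) for CL, and -2.60 and -1.51 were the values nearest 0 among the alternatives run. Mt2 in endothelial-like cells rested on 67, 4 and 11 UMIs, or 69.7, 3.54 and 13.3 CPM. The endothelial-like Mt2 level was 9.03%, 1.09% and 1.71% of the ASPC-like level of the same library. Tracers of free RNA, the 4 ASPC-like genes Dcn, Col1a1, Col1a2 and Col3a1, were at up to 0.508%, 1.02% and 1.71% of their ASPC-like level in endothelial-like cells. In cold and CL, Mt2 in endothelial-like cells was therefore near the level of the tracers.

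Macrophage-like cells had Mt1 at 565 CPM (538 to 594) in saline, 289 (257 to 325) in cold and 185.1 (173.4 to 197.4) in CL. The order differs from that of ASPC-like cells, with CL below cold. Within cluster 9, with Lyve1, Folr2 and Cd163 among its leading genes, Mt1 was at 667 CPM in saline, 335 in cold and 365 in CL, and within cluster 12, with Mgl2, Mmp12 and Trem2 among its leading genes, at 749, 259.9 and 485. CL thus lay below saline but not below cold in either cluster. The cold ratio over the class was -0.97 (-1.15 to -0.78), and -0.51 in cells with at most 5% mitochondrial UMIs. Mt1 in cluster 2 was at 253 CPM in saline and 139 in CL. Mt2 in macrophage-like cells was at 136.8 CPM in saline, 19.3 in cold and 31.9 in CL, with ratios of -2.83 (-3.58 to -2.17) and -2.10 (-2.37 to -1.83). The CL ratio of Mt2 was -1.73 in cluster 9, -1.37 in cluster 12 and -0.66 (-1.41 to 0.17) in cluster 2. Tracer genes in macrophage-like cells stayed at or below 0.413% of the ASPC-like level, against 35.4%, 43.3% and 15.3% for Mt1.

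Monocyte-like cells showed the Mt1 ratio furthest from 0 of the tested classes in cold, at 254 CPM (226 to 285) in saline, 23.7 (12.2 to 41.3) in cold and 94.4 (88.5 to 100.6) in CL. Within cluster 13, which held 87.1% of the cold monocyte-like cells, Mt1 was at 256 CPM in saline, 25.2 in cold and 68.7 in CL, so the class ratio of -3.43 was matched by -3.34 (-4.40 to -2.43) inside 1 cluster. Dendritic-like classes were also lower for Mt1 in cold, at -1.19 (-1.46 to -0.93) in type 2, -1.23 (-1.87 to -0.64) in type 1 and -0.80 (-1.05 to -0.55) in migratory dendritic-like cells. T cell-like cells had low levels of Mt1, at 41.9, 28.1 and 35.5 CPM with overlapping intervals. In plasmacytoid dendritic-like and NK-like cells Mt1 had 1 to 6 UMIs per library, too few for a ratio.

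Genes that handle metals or respond to oxidants, and genes of the interleukin-6 and STAT3 pathway, which is known to act on metallothionein genes, were read beside Mt1 and Mt2. In ASPC-like cells 10 of 11 tested metal and antioxidant genes were below saline in cold (42.2% of all 11465 genes tested were) and 7 of 11 in CL (43.7% of 11882). The median ratio of this list was -0.21 and -0.43, against 0.07 over all genes in both comparisons. Srxn1, which repairs oxidized peroxiredoxins, was at -1.01 (-1.31 to -0.72) in cold, Hmox1, the inducible haem oxygenase, at -0.90 (-1.04 to -0.76), and Slc30a1, a zinc exporter, at -0.84 (-1.57 to -0.17). In CL, Slc39a14, a zinc and iron importer induced by interleukin-6, was higher at 0.90 (0.65 to 1.15), and Gclc, of glutathione synthesis, was lower at -0.98 (-1.16 to -0.80). Mtf1, the metal-sensing transcription factor, was at 20.1, 18.5 and 17.3 CPM with intervals of both ratios that include 0. Of the 8 interleukin-6 and STAT3 genes, 7 were below saline in cold (42.2%) and 5 in CL (43.7%). Il6 was at 179 CPM in saline, 75.9 in cold and 178 in CL. Over the class, Mt2 was lowest in cold and alike in saline and CL, but its CL ratio differed in sign between clusters. Il6 was not read by cluster. Socs3, a feedback inhibitor that STAT3 induces, was lower in both, at -0.86 (-0.94 to -0.78) and -1.15 (-1.22 to -1.08), and Timp1 was higher in CL, with a log2 ratio of 3.24 (3.13 to 3.36). Timp1 is among the genes that lead cluster 10. Whether these genes have a part in the metallothionein levels was not tested.

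Counted over the 9 genes, most lay below saline in both treatments. In ASPC-like cells 8 of 9 were below 0 in cold, beside 42.2% of all genes tested, and 8 of 9 in CL, beside 43.7%. A 2-fold lower level was reached by 2 of the 9 in cold (3.24% of genes tested) and by none in CL (2.74%). In endothelial-like cells 7 of 9 were below 0 in cold and 8 of 9 in CL (48.2% of genes in both), and 3 were at least 2-fold lower in each (4.15% and 5.13%). In macrophage-like cells 7 of 9 were below 0 in cold (49.3%) with 3 at least 2-fold lower (3.92%), and 9 of 9 in CL (45.7%) with 5 at least 2-fold lower (8.12%). The median over the 9 genes was -0.47 and -0.63 in ASPC-like cells for cold and CL, -0.42 and -0.87 in endothelial-like cells and -0.95 and -1.61 in macrophage-like cells, where the medians over all genes lay between 0.01 and 0.07. Cluster 2 held 1060 of the 1293 CL macrophage-like cells and 170 of the 864 saline ones, so the CL values mix clusters. In cluster 2 the CL ratio was -0.66 for Mt2, -0.58 for Fkbp5 and -0.69 for Klf9, with intervals that include 0. In cluster 9 these ratios, given with each gene, were further from 0. In T cell-like cells 6 of 7 tested were below 0 in cold (44.5%) and 5 of 7 in CL (45.1%). In the other classes the counts below 0 in cold were 7 of 8 in monocyte-like cells (52.7%), 7 of 8 in B cell-like cells (57.7%), 7 of 8 in type 2 dendritic-like cells (49.2%), 5 of 6 in type 1 dendritic-like cells (41.1%), 5 of 8 in migratory dendritic-like cells (40.7%), 3 of 4 in plasmacytoid dendritic-like cells (40.1%) and 5 of 6 in NK-like cells (52%). In CL they were 7 of 9 (47.5%), 5 of 8 (53.1%), 8 of 8 (46.5%), 4 of 6 (40.3%), 3 of 8 (45.7%), 2 of 4 (42.4%) and 4 of 5 (43.7%) in the same order. In CL the migratory, plasmacytoid dendritic-like and B cell-like counts were thus near the share over all genes. For CL over cold, 0 of 7 genes were below 0 in T cell-like cells (52.1%), 2 of 7 in B cell-like cells (47.4%), 2 of 8 in migratory dendritic-like cells (53%), 0 of 3 in plasmacytoid dendritic-like cells (52.2%) and 5 of 8 in type 2 dendritic-like cells (46.2%). The CL over cold counts were 5 of 9 in ASPC-like cells (49.9%), 5 of 9 in macrophage-like cells (45.6%), 4 of 9 in monocyte-like cells (48.2%), 4 of 8 in endothelial-like cells (51.3%), 2 of 6 in type 1 dendritic-like cells (48.8%) and 4 of 5 in NK-like cells (41.8%), so the direction was not shared by the classes. These counts describe genes chosen with results known, and cold and CL share the saline library. Which genes differed was not the same for the treatments: in ASPC-like cells Mt1, Mt2 and Per1 had their lowest level in cold, and Fkbp5, Zbtb16, Sgk1, Klf9 and Txnip in CL. Tsc22d3 was also lowest in cold there, at 67.5 CPM against 70.2 in CL, with overlapping intervals.

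**Figure D3:**
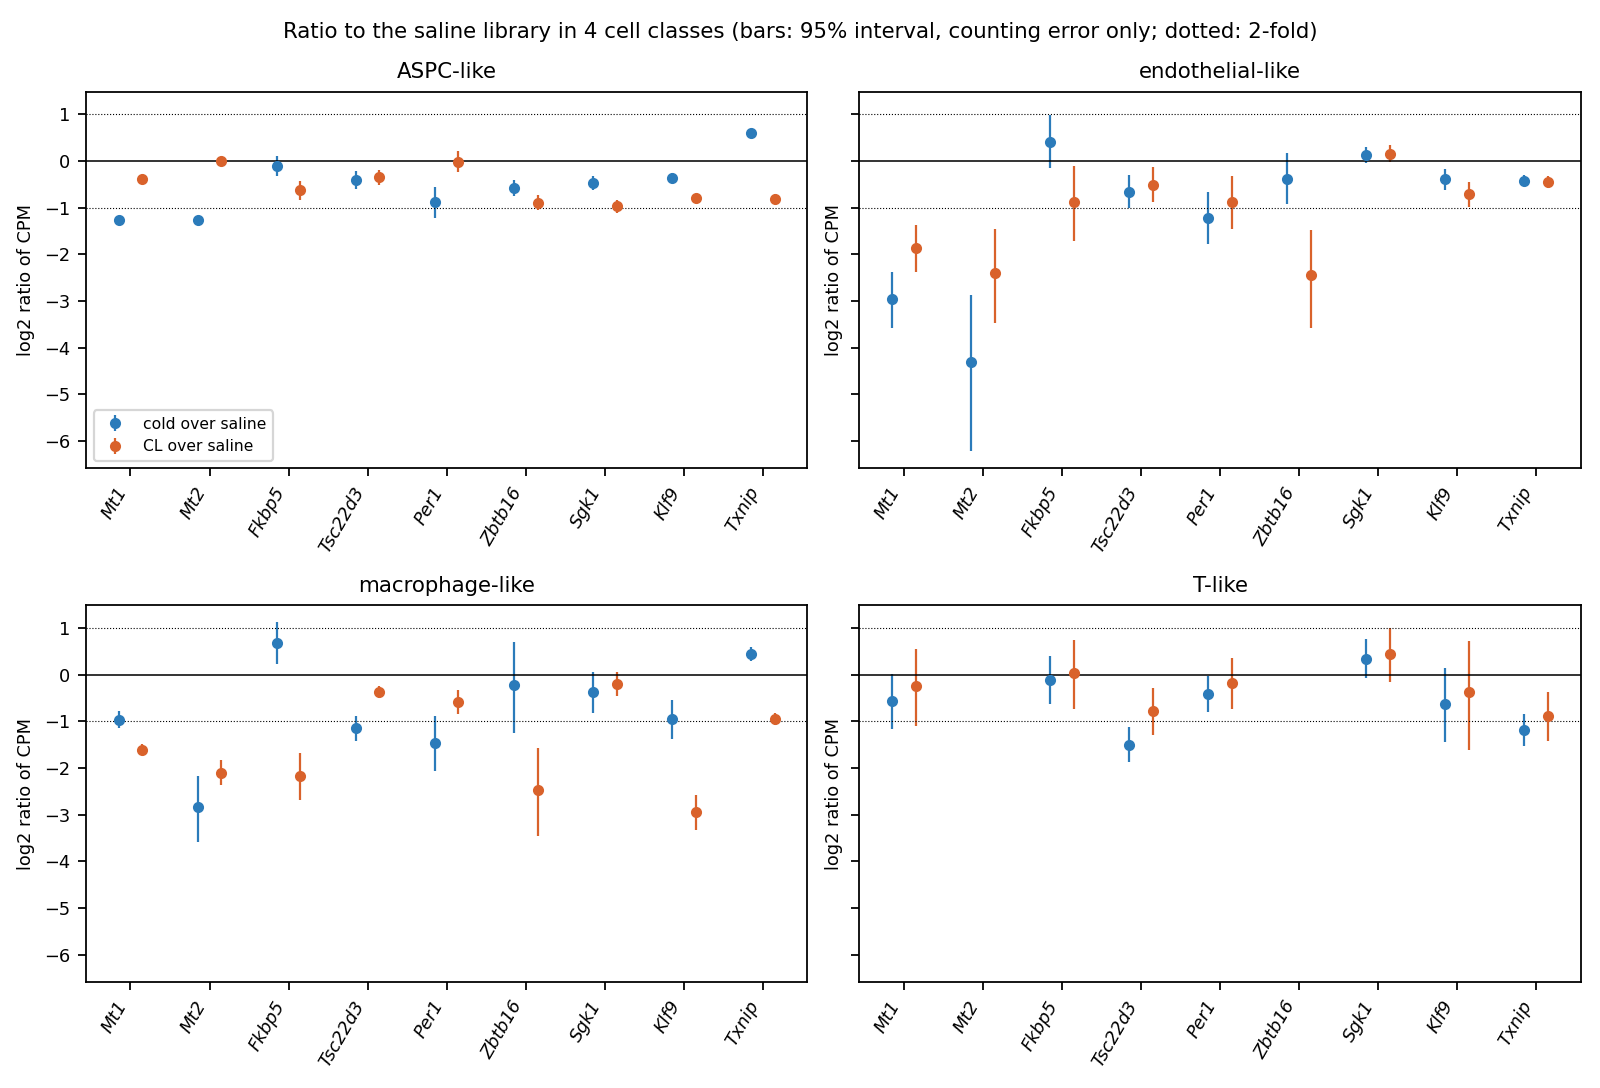
Log2 ratios of CPM to the saline library (vertical axis) for the 9 genes (horizontal axis) in 4 cell classes, blue for cold and orange for CL, with 95% intervals as bars and dotted lines at 2-fold. In ASPC-like cells Mt1 and Mt2 lie at -1.26 in cold, Txnip lies above 0 in cold at 0.60 and below 0 in CL at -0.81, and a gene with too few UMIs in a class has no point.

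Fkbp5 (chr17:28399094-28517527, minus strand) encodes a co-chaperone that lowers the receptor's affinity for hormone and is itself induced by it. In ASPC-like cells Fkbp5 was at 69.0 CPM (63.4 to 75.0) in saline, 64.3 (57.0 to 72.3) in cold and 44.7 (40.0 to 49.8) in CL. Saline and cold overlap and CL was lower, at -0.63 (-0.83 to -0.43). Macrophage-like cells had 43.2 CPM (35.9 to 51.5), 69.0 (53.6 to 87.5) and 9.51 (7.01 to 12.6), so Fkbp5 was above saline in cold at 0.68 (0.23 to 1.12) and below it in CL at -2.18 (-2.69 to -1.69). Within cluster 9 the ratios were 0.78 (0.21 to 1.33) and -1.36 (-2.86 to -0.17), the latter on 6 CL UMIs, and within cluster 2 the CL ratio was -0.58 (-1.79 to 0.84). In endothelial-like cells the levels were 46.8, 61.9 and 25.3 CPM, with CL over cold at -1.29 (-2.07 to -0.57). Fkbp5 in T cell-like cells was at 45.3, 41.8 and 46.0 CPM with overlapping intervals. In cold, then, the Fkbp5 interval included 0 or lay above it in each of these 4 classes, while both metallothioneins had intervals below 0 in ASPC-like, endothelial-like and macrophage-like cells. This did not hold in every class. The cold ratio of Fkbp5 was -1.01 (-1.90 to -0.17) in type 2 dendritic-like cells. It was -3.79 (-9.16 to -1.16) in plasmacytoid and 1.18 (0.23 to 2.16) in type 1 dendritic-like cells.

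Genes for the receptor itself, its chaperones and steroid activation were read beside Fkbp5. Of these 8, 4 were below saline in cold (42.2% of all genes were) and 2 in CL (43.7%) in ASPC-like cells, with medians of 0.00 and 0.27. Nr3c1, the glucocorticoid receptor, was at 157 CPM in saline, 193 in cold and 163 in CL, with ratios of 0.31 (0.18 to 0.43) and 0.06 (-0.06 to 0.17). Hsd11b1, the enzyme that regenerates active glucocorticoid inside cells, was at 122, 178 and 85.3 CPM, with ratios of 0.54 (0.40 to 0.67) and -0.52 (-0.67 to -0.37). Hsd11b2, which inactivates the hormone, was low, at 4.72 CPM in saline, with ratios of 0.92 (0.23 to 1.60) and 1.22 (0.65 to 1.82). The levels of receptor and both enzymes were thus higher in cold than in saline, though the enzymes act on the hormone in opposite ways. Whether they have a part in the levels of the 9 genes was not tested. In macrophage-like cells Nr3c1 was at 142, 155 and 104 CPM, with a CL ratio of -0.44 (-0.63 to -0.25).

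Tsc22d3 (chrX:140539528-140600659, minus strand) encodes the leucine zipper protein GILZ, an anti-inflammatory mediator of glucocorticoids. Its cold ratio was below 0 in all 11 classes, with intervals below 0 in 10, NK-like cells being the exception at -0.44 (-1.30 to 0.44). In B cell-like cells Tsc22d3 was at 276.5 CPM (258.5 to 295.5) in saline, 123.8 (113.1 to 135.3) in cold and 265.7 (219.5 to 318.6) in CL. Cold stood apart there and saline and CL overlapped, and the cold ratio of -1.16 (-1.32 to -0.998) was -2.92 in cells with at most 5% mitochondrial UMIs. Macrophage-like cells had 309.5 CPM, 140.0 and 239, with a cold ratio of -1.14 (-1.41 to -0.88), and plasmacytoid dendritic-like cells had 276, 113 and 225, with a cold ratio of -1.29 (-1.81 to -0.79). T cell-like cells had 150.0 CPM, 53.1 and 87.8, with the cold level below those of both other libraries. In T cell-like cluster 11, with Ikzf2, Icos and Ctla4 among its leading genes, the cold ratio was -1.51 on 164 and 57.8 CPM, and in cluster 17, with Tcf7 and Lef1 among its leading genes, -1.06 (-1.90 to -0.31). In the dividing cluster 22, marked by Mki67 and Top2a, it was -0.40 (-1.42 to 0.66). ASPC-like cells had lower levels of 89.6 CPM, 67.5 and 70.2, and ratios of -0.41 (-0.61 to -0.21) and -0.35 (-0.52 to -0.19). The CL ratio in ASPC-like cells was -0.04 in cluster 3 and -0.11 in cluster 5. For CL, Tsc22d3 in macrophage-like cells was 0.03 (-0.28 to 0.32) in cluster 9 and 0.12 (-0.15 to 0.41) in cluster 2, beside -0.37 (-0.50 to -0.24) over the class. A lower level in cold with little difference in CL thus appeared in B cell-like, monocyte-like and type 2 and plasmacytoid dendritic-like cells, whose CL ratios were -0.06, 0.07, -0.16 and -0.30 with intervals that include 0. For type 2 dendritic-like cells this was not seen when each cell was named by its marker UMIs, which gave a CL ratio of -1.57. For B cell-like cells a minimum of 1000 genes gave -0.59. The UMI counts behind these alternatives are not given here and may be small. In monocyte-like cells at most 5% mitochondrial UMIs gave 0.38.

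Per1 (chr11:69095217-69109960, plus strand) encodes a repressor of the circadian clock that glucocorticoids and cAMP also induce. In ASPC-like cells Per1 was at 40.8 CPM (36.5 to 45.5) in saline, 22.1 (17.9 to 27.0) in cold and 40.5 (36.0 to 45.4) in CL. Cold was lower by -0.88 (-1.23 to -0.55), and saline and CL overlapped. The cold ratio was -0.98 in cluster 3, -0.79 in cluster 5 and -0.65 (-1.56 to 0.20) in cluster 14. Endothelial-like cells had 88.5 CPM, 38.0 and 48.2, with ratios of -1.22 (-1.78 to -0.67) and -0.87 (-1.45 to -0.32). Macrophage-like cells had 80.7 CPM, 29.4 and 53.9, with ratios of -1.46 (-2.07 to -0.89) and -0.58 (-0.84 to -0.32). Per1 in B cell-like cells was closer between libraries, at 101.9, 83.8 and 109.9 CPM.

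Since Per1 belongs to the clock, the rest of the clock list was read beside it. Of 15 tested genes in ASPC-like cells, 8 were below saline in cold (42.2% of all genes) and 12 in CL (43.7%), with medians of -0.06 and -0.37. In cold the members went both ways. Dbp, an output gene of the clock, was at 32.4 CPM in saline, 69.1 in cold and 18.3 in CL, with ratios of 1.09 (0.85 to 1.34) and -0.82 (-1.13 to -0.52). Per3, a paralogue of Per1, was at 0.91 (0.49 to 1.32) in cold, opposite in sign to Per1, and Nr1d1, which encodes the repressor REV-ERBα, at 0.62 (0.36 to 0.88). Bhlhe40 and Nfil3, both repressors, were lower in cold at -1.34 (-1.62 to -1.08) and -1.08 (-1.40 to -0.78). In CL, Dbp, Nr1d1 at -0.81 (-1.12 to -0.51), Nr1d2 at -1.13 (-1.39 to -0.87) and Tef at -0.82 (-1.13 to -0.51) were all lower. In macrophage-like cells Dbp was at 15.4, 50.7 and 6.54 CPM, with ratios of 1.72 (1.10 to 2.33) and -1.24 (-1.94 to -0.56), while in endothelial-like cells its cold ratio was -0.22 (-0.57 to 0.12). Output genes of the clock differed between the 3 libraries, and the hour of collection was not given. The part of the hour in the Per1 levels was not tested.

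**Figure D4:**
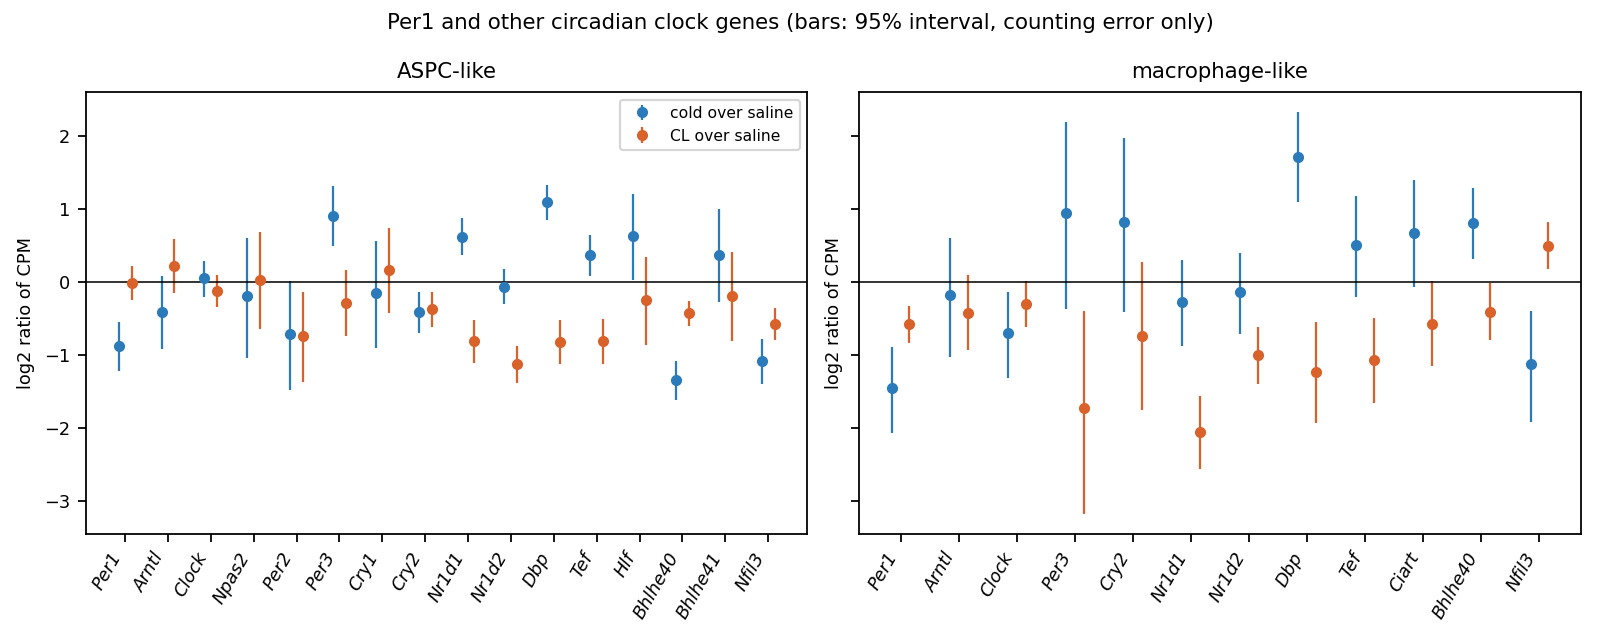
Log2 ratios of CPM to the saline library (vertical axis) for Per1 and the tested genes of the clock list (horizontal axis) in ASPC-like cells (left) and macrophage-like cells (right), blue for cold and orange for CL, bars for 95% intervals. Dbp lies at 1.09 in cold and -0.82 in CL in ASPC-like cells, where Per1 lies at -0.88 and -0.01.

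Zbtb16 (chr9:48654297-48836222, minus strand) encodes the zinc finger protein PLZF and Klf9 (chr19:23141226-23168134, plus strand) a Krüppel-like factor, both transcription factors. Zbtb16 in ASPC-like cells was at 133 CPM (126 to 142) in saline, 89.8 (81.2 to 99.2) in cold and 72.0 (66.0 to 78.4) in CL. Saline was highest and no intervals overlapped. The ratios were -0.57 (-0.74 to -0.40) and -0.89 (-1.04 to -0.74). Within cluster 5 the cold ratio was -1.25 (-1.66 to -0.85), and within cluster 3 it was -0.40 (-0.61 to -0.20). The CL ratio lay between -0.72 and -0.47 in clusters 3, 5, 10 and 14, nearer 0 in each than in the class. Endothelial-like cells were the other class with a clear level, at 65.6 CPM, 50.4 and 12.1 on 63, 57 and 10 UMIs, with a CL ratio of -2.44 (-3.57 to -1.47). All 10 CL UMIs of Zbtb16 were in cluster 8, the capillary cluster led by Fabp4 and Gpihbp1, where the ratio was -2.55 (-3.69 to -1.56). B cell-like cells, with 5, 1 and 0 UMIs of Zbtb16, gave 1.58 and 0.253 CPM and a level of 0 that allows up to 6.87 CPM at 3 UMIs, and plasmacytoid dendritic-like cells had none in any library.

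Klf9 was at 417 CPM (403 to 431) in saline, 326 (309 to 343) in cold and 241 (229.6 to 252.2) in CL in ASPC-like cells. The order of the libraries was that of Zbtb16, with ratios of -0.36 (-0.45 to -0.27) and -0.79 (-0.88 to -0.71). All 4 larger ASPC-like clusters were below saline in CL, at -0.50 (-0.69 to -0.32) in cluster 3, -0.78 (-0.91 to -0.64) in cluster 5, -0.38 (-0.62 to -0.13) in cluster 14 and -0.58 (-0.92 to -0.23) in cluster 10. Endothelial-like cells had Klf9 at 373 CPM, 283 and 227, with ratios of -0.40 (-0.62 to -0.17) and -0.72 (-0.98 to -0.46), so the 3 libraries kept the same order there. In macrophage-like cells Klf9 was at 113 CPM (101 to 126), 58.8 (44.7 to 76.1) and 14.7 (11.5 to 18.4), with ratios of -0.95 (-1.37 to -0.54) and -2.95 (-3.33 to -2.58). In cells with at most 5% mitochondrial UMIs the cold ratio was 0.04, so the lower level in cold was not seen there. Within clusters the cold ratio was -0.95 (-1.47 to -0.47) in cluster 9 and -1.57 (-2.49 to -0.76) in cluster 12. Macrophage-like clusters had unequal levels in saline, where Klf9 was at 175 CPM in cluster 9, 119.9 in cluster 12 and 19.7 in cluster 2. Inside cluster 9 the CL ratio was -1.90 (-2.87 to -1.06), inside cluster 12 -1.99 (-3.33 to -0.89) on 7 UMIs, and inside cluster 2 -0.69 (-1.61 to 0.36).

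Sgk1 (chr10:21882184-21999903, plus strand) encodes a kinase of salt and insulin signalling. In endothelial-like cells Sgk1 was at 564 CPM (517.5 to 614) in saline, 617 (572 to 664) in cold and 628 (576 to 685) in CL. All 3 intervals overlap, and the ratios were 0.13 (-0.04 to 0.29) and 0.16 (-0.02 to 0.33). ASPC-like cells had 146 CPM (138 to 155), 105.6 (96.2 to 115.6) and 74.4 (68.3 to 80.9), with ratios of -0.47 (-0.63 to -0.31) and -0.97 (-1.12 to -0.83). Here saline was highest and CL lowest, without overlap. The CL ratio of ASPC-like clusters was furthest from 0 in cluster 5, where Sgk1 was at 302 CPM in saline, 215 in cold and 129 in CL, a CL ratio of -1.22 (-1.43 to -1.02). In cluster 3 the levels were 73.0, 59.9 and 60.5 CPM, with a CL ratio of -0.27 (-0.68 to 0.12). In monocyte-like cells Sgk1 was instead highest in cold, at 91.8 CPM, 193 and 74.2, with a cold ratio of 1.07 (0.66 to 1.49). Naming each cell by its marker UMIs gave 0.41. Within cluster 13 the same ratio was 0.57 (0.04 to 1.11), on 144.0, 213 and 188 CPM. Sgk1 was the 1 of the 8 genes tested there that was at least 2-fold higher in cold (3.89% of genes were), and 2 were at least 2-fold lower (8.23%).

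Txnip (chr3:96557957-96561883, plus strand) encodes an arrestin-like protein that binds thioredoxin and holds down glucose uptake, and its ASPC-like intervals lay above 0 in cold and below 0 in CL. In ASPC-like cells Txnip was at 282 CPM (270.4 to 294) in saline, 427 (408 to 447) in cold and 161 (152 to 171) in CL. Cold was highest and CL lowest, and the log2 ratios were 0.60 (0.51 to 0.69) and -0.81 (-0.91 to -0.70). The share of cells with a UMI after thinning was 23.6%, 41.4% and 18.0%, and without thinning 47.9%, 73.3% and 43.7%. Txnip was unequal among ASPC-like clusters, at 637 CPM in cluster 5 of the saline library, 200.5 in cluster 14 and 121 in cluster 3. The cold ratio was 1.28 (1.12 to 1.45) in cluster 3, 0.65 (0.38 to 0.93) in cluster 14 and 0.26 (0.14 to 0.38) in cluster 5. The cold ratio was thus highest where the saline level was lowest. The saline level is also the divisor of the ratio, so this order over clusters 3, 14 and 5 is partly built in. The CL ratio was -1.04 (-1.18 to -0.91) in cluster 5 but -0.19 (-0.49 to 0.10) in cluster 3, -0.03 (-0.33 to 0.27) in cluster 14 and -0.16 (-0.74 to 0.47) in cluster 10.

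In other classes Txnip did not follow the ASPC-like order. Endothelial-like cells had 1325 CPM (1253 to 1400), 990 (933 to 1050) and 964 (898 to 1033), so both treatments were below saline, at -0.42 (-0.54 to -0.30) and -0.46 (-0.59 to -0.33). Macrophage-like cells had 403 CPM, 544 and 208, with ratios of 0.43 (0.28 to 0.58) and -0.95 (-1.08 to -0.83). Within macrophage-like clusters the CL difference was not seen: the ratio was 0.23 (-0.01 to 0.46) in cluster 9, -0.01 (-0.38 to 0.35) in cluster 12 and 0.02 (-0.31 to 0.36) in cluster 2. Cluster 2 had less Txnip than cluster 9 in the saline library, at 143 against 624 CPM. T cell-like cells had 146.0 CPM, 64.3 and 79.4, with a cold ratio of -1.18 (-1.53 to -0.84). That ratio was -0.77 (-1.28 to -0.28) in cluster 11 and -0.43 (-1.03 to 0.14) in cluster 17, and cells with at most 5% mitochondrial UMIs gave 0.015. B cell-like cells had 231 CPM, 192.5 and 215.

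Of 7 thioredoxin and arrestin genes read beside Txnip in ASPC-like cells, 5 were below saline in cold (42.2% of all genes) and 3 in CL (43.7%), the latter near the share over all genes. Txn1, the thioredoxin that Txnip binds, was at 622 CPM in saline, 470 in cold and 1533 in CL, with ratios of -0.40 (-0.48 to -0.33) and 1.30 (1.25 to 1.35). Its signs are opposite to those of Txnip in both comparisons. Arrdc3, another arrestin-like gene, was at 0.57 (0.24 to 0.90) in cold, and Slc2a1, a glucose transporter, at 0.79 (0.26 to 1.33) in CL on levels of 6.21 and 10.7 CPM. In macrophage-like cells Txn1 was at -0.08 (-0.27 to 0.10) in cold and 1.05 (0.95 to 1.16) in CL.

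Other genes known to be induced by glucocorticoids were counted from a separate list, of which Cebpd was not analysed here. In ASPC-like cells 14 of 20 tested were below saline in cold (42.2% of all genes) and 14 of 20 in CL (43.7%), with medians of -0.19 and -0.33. Irs2, an adaptor of insulin signalling, was at 195 CPM in saline, 76.2 in cold and 64.9 in CL, with ratios of -1.35 (-1.53 to -1.18) and -1.58 (-1.74 to -1.44). Cxcr4, at 10.3, 4.10 and 3.67 CPM, and Cd163, at 3.60, 0.912 and 0.272 CPM, were lower in both treatments on few UMIs. Cd163 is a leading gene of macrophage-like cluster 9, which held 355, 110 and 74 cells in saline, cold and CL. The part of free RNA or doublets in its ASPC-like level was not tested. Sult1a1, a sulfotransferase, was higher in cold at 0.86 (0.59 to 1.14), and Bcl6, a repressor, lower in CL at -1.09 (-1.38 to -0.80). Dusp1, a phosphatase often read as a response to the hormone, was at -0.05 (-0.11 to 0.02) in cold and 0.05 (0.00 to 0.11) in CL. In endothelial-like cells 12 of 16 were below saline in each comparison (48.2% of all genes in both), and in macrophage-like cells 10 of 16 in cold (49.3%) and 13 of 18 in CL (45.7%). In macrophage-like cells Cd163, a haemoglobin scavenger receptor, was at 0.25 (0.11 to 0.38) in cold and -3.03 (-3.21 to -2.86) in CL, and it is a leading gene of cluster 9, which held 355 saline and 74 CL cells.

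Immediate early and heat shock genes, which tissue dissociation is known to induce, were read in the same classes. In endothelial-like cells 15 of 15 tested immediate early genes were below saline in cold and 15 of 15 in CL (48.2% of all genes in both), with medians of -0.85 and -1.11, and 9 of 10 heat shock genes were below saline in each. The summed immediate early level there was 16406, 9051 and 7650 CPM. In ASPC-like cells 10 of 15 immediate early genes were below saline in cold (42.2% of all genes) and 11 of 15 in CL (43.7%), with medians of -0.04 and -0.48, and 9 of 10 and 6 of 10 heat shock genes. In macrophage-like cells 8 of 15 immediate early genes were below saline in cold (49.3% of all genes) and 13 of 15 in CL (45.7%), with medians of -0.05 and -0.80, the cold count being near the share over all genes. Heat shock genes there differed from this, with 10 of 10 below saline in cold and 6 of 10 in CL. Their medians were -0.37 and -0.16. The part of dissociation in the levels of the 9 genes was not tested. FoxO genes and targets were read because Txnip is also a FoxO target, and in ASPC-like cells 6 of 8 tested were below saline in cold (42.2%) and 7 of 9 in CL (43.7%).

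Of 11 paralogues of the 9 genes tested in ASPC-like cells, 5 were below saline in cold, near the 42.2% of all genes, and 9 in CL (43.7%). Tsc22d1, at 83.9, 91.0 and 81.4 CPM, and Klf13, at 122, 139 and 101 CPM, had cold ratios above 0 where Tsc22d3 and Klf9 were below. Tsc22d2 was lower at -0.61 (-0.83 to -0.40) and -0.49 (-0.67 to -0.32). Fkbp4, the other large immunophilin of the receptor complex, was at 45.4, 46.1 and 55.2 CPM, with a CL ratio of 0.28 (0.07 to 0.49) where Fkbp5 was at -0.63.

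Over the 33 sums of class by library, the genes whose log2(CPM + 20) followed each member most closely were ranked among 5893 genes. For Mt1 these were Mt2 (Pearson r of 0.883), Cxcl1 (0.851) and Dapk1 (0.844), and for Mt2 they were Cxcl1 (0.890), Ugdh (0.888) and Mt1. Zbtb16 was followed by Fkbp9 (0.936), Bgn (0.927) and Klf9 (0.924). Klf9 was followed by Gstm1 (0.938), Nfia (0.936) and Cyr61 (0.932). Sgk1 was followed by Luzp1 (0.914), Ctnnbip1 (0.867) and Oaz2 (0.855), and Txnip by Nbr1 (0.877), Dynlt3 (0.869) and Pink1 (0.866). Fkbp5, Tsc22d3 and Per1 had lower values, led by Slc29a1 (0.754), Rreb1 (0.787) and Sf1 (0.817). Among the 9 genes themselves, Mt1 and Tsc22d3 were at -0.13 and Mt1 and Per1 at -0.43. The 9 genes therefore did not form 1 pattern across classes, with Mt1, Mt2, Zbtb16 and Klf9 high in ASPC-like cells and Tsc22d3 and Per1 spread over immune-like and endothelial-like classes. These values describe 11 classes read in the same 3 libraries, where points of a class share their cell type and points of a library their depth and free RNA.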

How the data were processed

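Single-cell RNA libraries of the 10x 3' v3 kind were read from 3 samples of inguinal fat, 1 per treatment. The deposited matrices hold UMI counts, made by the authors with Cell Ranger 3.0.2 per the file headers and on mm10 per the submitters' processing notes. Settings of cell calling and the gene annotation are not given in the sources used here. All later steps were computed from these counts.

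Barcodes with at least 500 genes and at most 15% mitochondrial UMIs were kept, which left 24531600, 18288407 and 28028000 UMIs in the saline, cold and CL libraries. Doublets were kept, and the highest Scrublet scores were left out as an alternative. Clusters came from 2000 variable genes without the 9 genes and the lists read beside them, 30 principal components, 15 neighbours and Leiden resolution 1, which gave 40 clusters (scanpy 1.11.5, leidenalg 0.10.2, Python 3.11.15, numpy 2.4.6, scipy 1.17.1, pandas 2.3.3). A cluster was named by its highest mean log2 fold over a marker list, with at least 3 markers at 50 CPM or more. UMIs were summed per class and library. Genes with at least 20 UMIs over both libraries compared were tested for direction, and no statistical test was run. Intervals are exact Poisson (levels), conditional binomial (ratios) and Clopper-Pearson (shares) at 95%. The ratio intervals were checked on simulated Poisson counts, for which they are made, so the check does not cover spread between cells or libraries.

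All 9 genes are described, with up to 4 genes of each list that had the largest ratio in ASPC-like cells and, for each gene, the 3 most alike. Further list genes, such as Nr3c1, Mtf1, Dusp1, Nr1d1 and Txn1 in macrophage-like cells, were named for their role after their values were seen. Some genes stand in more than 1 list. The members and lists were chosen with earlier results of these data known. Alternatives were stricter limits on genes and mitochondrial UMIs, other clustering or naming, centring, equal weight per cell, the largest cluster alone, leaving out top cells, and another thinning depth.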

Additional observations from a re-analysis of the deposited data

Results flagged for a closer look

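Fkbp5 differed in direction between dendritic-like classes in cold over saline. In type 1 dendritic-like cells the log2 ratio was 1.18 (0.23 to 2.16), on 23 cold and 18 saline UMIs. In plasmacytoid dendritic-like cells it was -3.79 (-9.16 to -1.16), on 1 and 22 UMIs, and in type 2 dendritic-like cells it was -1.01 (-1.90 to -0.17), on 17 and 45 UMIs. The intervals lie on opposite sides of 0 and cover counting error only. With 1 library per treatment the difference between the classes was not tested.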

How the results depend on the processing

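In ASPC-like, endothelial-like and macrophage-like cells the count of the 9 genes below 0 stayed within 1.5 times its value under every alternative run for the comparisons. Of all log2 ratios, 84 had another sign under at least 1 alternative, 13 of them with an interval clear of 0. Direction turned for 4 ratios of at least 2-fold with an interval clear of 0. With at most 5% mitochondrial UMIs, cold over saline became 0.59 for Mt2 in B cell-like cells and 0.015 for Txnip in T cell-like cells. With each cell named by its marker UMIs, type 2 dendritic-like cells gave 0.65 for Klf9 in CL over saline and -0.84 for Tsc22d3 in CL over cold. UMI counts under these alternatives are not given here, so these turns may rest on few UMIs. Before the stricter limit, Mt2 had 30 saline and 10 cold UMIs in B cell-like cells. Counts below 0 moved in smaller classes. With cells named by marker UMIs they became 3 in NK-like cells (cold over saline), 1 in T cell-like and 1 in plasmacytoid dendritic-like cells (CL over cold), 6 in migratory and 5 in type 2 dendritic-like cells (CL over saline) and 2 in type 2 dendritic-like cells (CL over cold). With at least 1000 genes they became 2 in B cell-like cells for CL over saline, 1 in B cell-like cells for CL over cold and 2 in T cell-like cells for CL over cold. With at most 5% mitochondrial UMIs, CL over cold gave 4 in T cell-like and 1 in migratory dendritic-like cells. Without the highest Scrublet scores they were 3 in NK-like cells (cold over saline) and 2 in T cell-like cells (CL over cold), and 2 in the latter with the largest cluster alone. Equal weight per cell gave 3 in NK-like cells, and leaving out the top 1% of cells gave 3 in NK-like cells, 1 in B cell-like cells (CL over cold) and 5 in migratory dendritic-like cells (CL over saline). The cause was not tested. No paired analysis was possible because each treatment has 1 library. Depth limits NK-like and plasmacytoid dendritic-like cells most, where members had few UMIs.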
